A study of Mus musculus with 5 samples.

Results

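The genes followed here are 7 genes of T cell receptor recombination and of the CD4+CD8+ double-positive (DP) stage of the thymus, *Rag1*, *Rag2*, *Dntt*, *Arpp21*, *Cd24a*, *Cd1d1* and *Bcl11b*. They were chosen by name as signs of immature cells, and they are 7 of 55487 gene identifiers counted. RNA was sequenced from sorted CD4 single-positive (SP) thymocytes of 3 wild type (WT) and 2 *Tet2/3* double knockout (DKO) mice, all on the C57BL/6J strain, with 1 SMART-seq library per mouse. The DKO genotype is given as Tet2-/-Tet3flx/flxCD4cre, so *Tet2* was missing from the germline, while *Tet3* was deleted by Cre recombinase under *Cd4* control, which comes on in thymocytes near the DP stage. *Rag1*, *Rag2* and the terminal transferase encoded by *Dntt* act before and during that stage, at which cells of these mice begin to lose *Tet3*. The cells are labelled CD4+HSAlowTCRb+, HSA being the CD24 protein. CD24-high cells were depleted, and live CD4+ TCRβ+ cells without CD8 and without binding of the lipid-loaded CD1d tetramer were then sorted, so the protein products of *Cd24a*, *Cd4*, *Cd8a* and *Cd8b1* set which cells were kept.

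RAG1 and RAG2 together form the recombinase that cuts DNA at the recombination signals of receptor gene segments, and the broken ends are joined by the general end joining machinery. TdT, the product of *Dntt*, adds nucleotides to the open ends without a template. In DP thymocytes the recombinase is used for the α chain, and a cell whose receptor receives a selecting signal switches the recombinase genes off as it becomes single-positive. RNA and protein of the earlier stage can outlast that switch for some time, so recently selected cells are known to differ from older SP cells in such genes.

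Reads counted on genes ranged from 17607089 to 27267031 per library. *Tet3* had 43.8, 45.6 and 52.5 CPM (counts set to a shared library size) in WT, against 19.98 and 13.1 in *Tet2/3* DKO libraries, for a log2 fold change of -1.50 (standard error, SE, 0.18, adjusted p = 0.00121, by the quasi-likelihood test of edgeR with the Benjamini-Hochberg correction, as for every adjusted p on genes below). *Tet2* counts per gene gave a log2 fold change of 0.46 (adjusted p = 0.135), with 0.10 without *Tet2/3* DKO replicate 1 and 0.72 (adjusted p = 0.000506) without replicate 2, and they do not test whether single exons are missing. *Cd4*, the defining marker of the sort, had 635, 752 and 572 CPM in WT, against 389 and 433 in *Tet2/3* DKO libraries, and fell by 0.67 on the log2 scale (adjusted p = 0.0095). The *Tet3* call was lost without WT replicate 2 or 3 (adjusted p = 0.0154 and 0.0144), and that of *Cd4* without any 1 WT library (adjusted p from 0.0203 to 0.0419), with library size as the only scaling (0.0112) and with the legacy moderation of edgeR (0.0103). The sex-linked genes went against the labels of 2 libraries. WT replicate 1 is labelled female, yet had 0 *Xist* reads and 6821 reads on 4 Y-linked genes, and *Tet2/3* DKO replicate 1 is labelled male, yet had 744 *Xist* reads and 7 Y-linked reads. The methods of the study give all mice as male, which differs from the reads of the latter library too. All 7 genes are autosomal, and their values are also given without each of these libraries. *Tet2/3* DKO replicate 1 further had 5.70% of its reads on no annotated gene, against 3.51% to 3.72% in the other libraries.

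In the sorted cells the recombinase genes were at the limit of detection in both genotypes, while RNA of *Dntt*, *Cd24a*, *Cd1d1* and *Bcl11b* was found in every library. No member passed an adjusted p of 0.01, among 5 members tested. *Dntt*, *Arpp21* and *Cd24a* had lower values in the *Tet2/3* DKO pair than in any WT library, *Cd1d1* and *Bcl11b* overlapped, and *Rag1* and *Rag2* had too few reads to be tested. Of all 13525 genes tested, 3.92% passed the threshold, 19.5% lay with both *Tet2/3* DKO libraries below every WT library and 19.6% with both above. At an unadjusted p under 0.05 there were 3 members, all lower in *Tet2/3* DKO cells, where 23.0% of all tested genes passed that level and 10.6% were lower, and DESeq2, the other tool run, put 0 members past the threshold, beside 6.91% of the 14859 genes it tested. The median log2 fold change of the 5 tested members was -0.53, beside 0.01 over all tested genes. In bulk RNA, fewer cells of an immature kind and less RNA in each cell cannot be told apart.

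**Figure D1:**
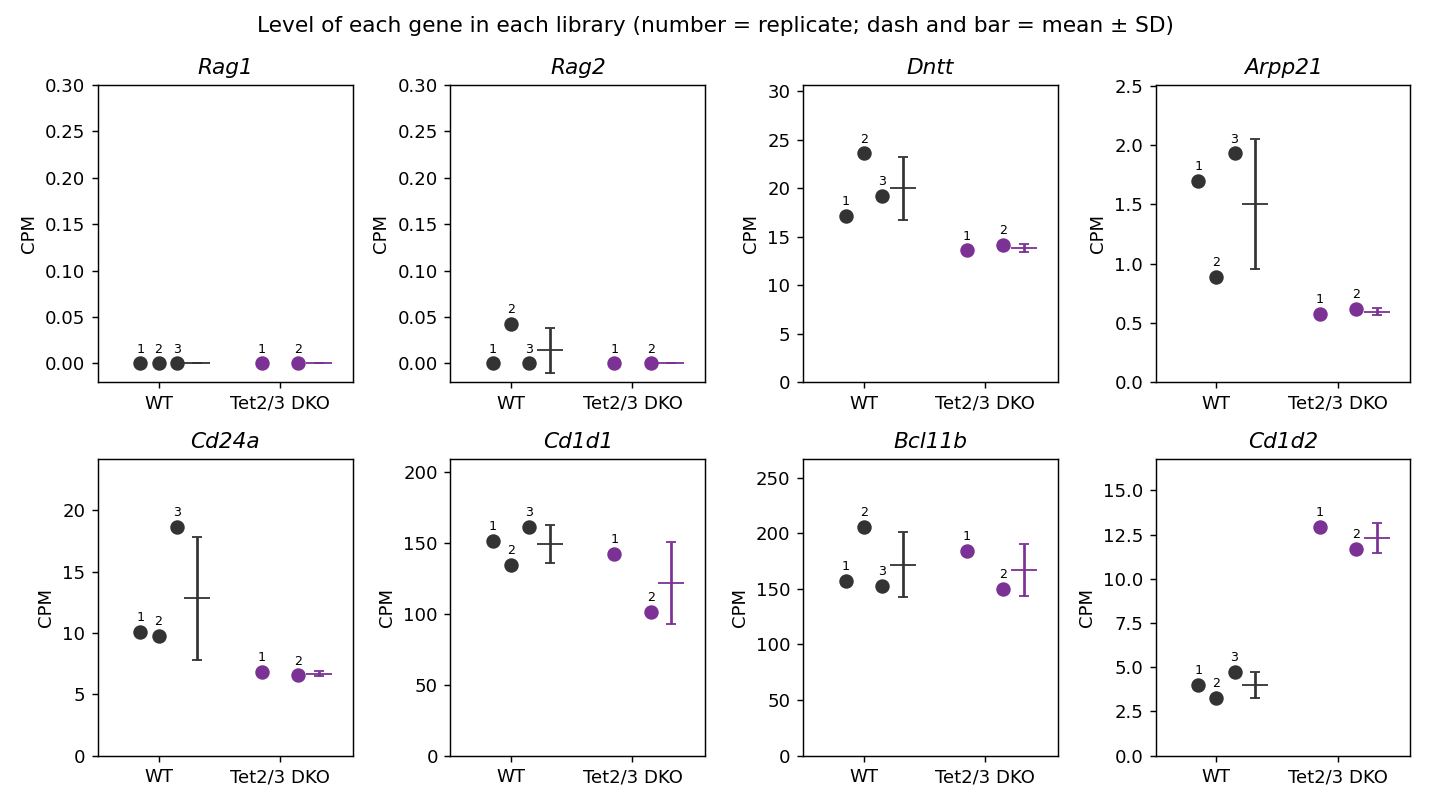
Level in CPM (vertical axis, from 0 and on a scale of its own in each panel) of the 7 genes and of *Cd1d2* in the 3 WT (black) and 2 *Tet2/3* DKO (purple) libraries, with numbers giving the replicate and dashes with bars giving mean ± SD. *Rag1* and *Rag2* lie at or next to 0 in all libraries, *Dntt*, *Arpp21* and *Cd24a* have lower values in the *Tet2/3* DKO pair than in any WT library, and *Cd1d2* is higher in both.

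*Rag1* (ENSMUSG00000061311, chromosome 2 of mm10 from 101638282 to 101649501 on the minus strand), which encodes the DNA-cutting subunit of the recombinase, had 0 reads in all 5 libraries, also when reads were counted on either strand alone. *Rag2* (ENSMUSG00000032864, chromosome 2 from 101624718 to 101632529 on the plus strand), which encodes its partner subunit, had 1 read, in WT replicate 2, and 0 reads in the other 4 libraries. Together the 5 libraries held 116050523 reads on genes. A count of 0 allows up to 3 counts, which corresponds to 0.109 to 0.168 CPM in a single library, to 0.0389 CPM over the WT group and to 0.0772 CPM over the *Tet2/3* DKO group. These limits cover counting error only, and a difference between the genotypes below them was not detectable at this depth. A count of 0 was common, since 6809 of 21974 protein-coding genes (31.0%) had 0 reads in all 5 libraries.

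Set against the terminal transferase per base of exon, the recombinase genes were lower by a wide margin. Over the WT group *Dntt* had 1532 reads, a level per base at least 1472-fold higher than that of *Rag1*, whose bound was taken at 3 counts over the group. Over the *Tet2/3* DKO group *Dntt* had 538 reads, at least 517-fold higher per base than *Rag1* and at least 268-fold higher than *Rag2*. Both genotypes thus carried *Dntt* RNA without detectable *Rag1* RNA.

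*Rag1* and *Rag2* face each other, with 5752 bases between their 3′ ends. The protein-coding gene *B230118H07Rik*, now named *Iftap*, begins next to the *Rag1* start and runs across both genes in the direction of *Rag1*. Its exons share 80 of the 6608 exon bases of *Rag1* (1.21%) and 208 of the 3424 of *Rag2* (6.07%), where reads that fall on exons of more than 1 gene are left out of the deposited counts. This overlap was taken from GENCODE M21, while the counts were made with another release, the GRCm38.100 annotation, in which it may differ. *B230118H07Rik* had 74, 62 and 111 reads in WT, against 53 and 31 in *Tet2/3* DKO libraries, for a log2 fold change of -0.57 (SE 0.34, adjusted p = 0.373). *Traf6*, the next gene beyond *Rag1* and a signalling ligase used in most cells, had 833, 841 and 866 reads in WT, against 809 and 526 in *Tet2/3* DKO libraries, for a log2 fold change of 0.05 (adjusted p = 0.897). Both neighbouring genes thus had reads in every library, and the counts per gene do not show on which exons.

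**Figure D2:**
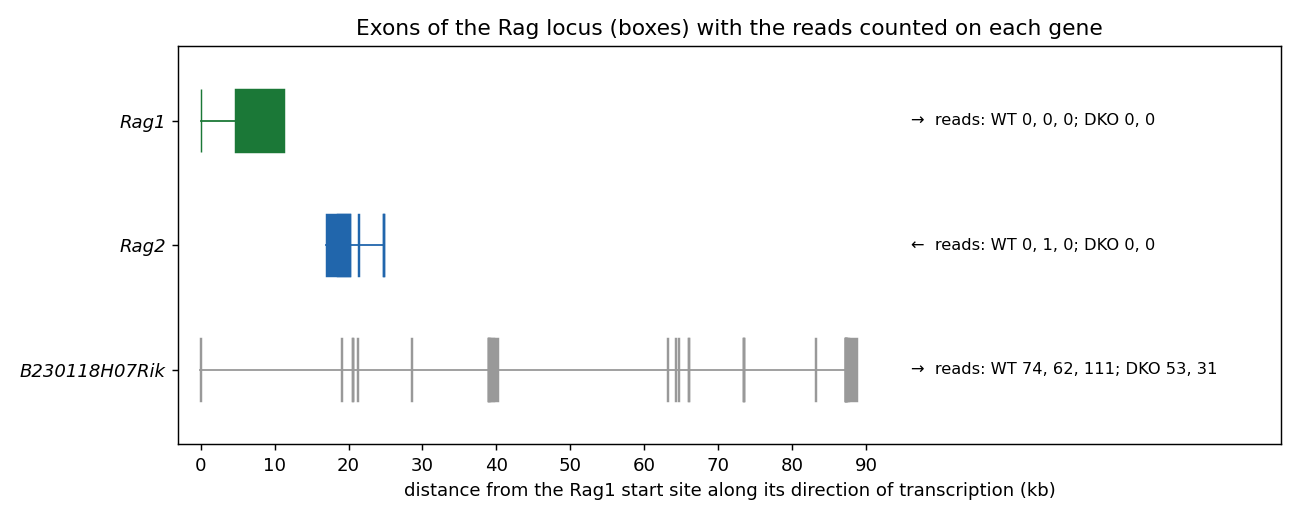
Exons (boxes) of *Rag1*, *Rag2* and the protein-coding gene *B230118H07Rik*, by distance in kb from the *Rag1* start site along its direction of transcription, with an arrow for each gene's direction and its read count in each library. The pair of recombinase genes holds 1 read in all, while 31 to 111 reads per library were counted on the gene that spans it.

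*Dntt* (ENSMUSG00000025014, chromosome 19 from 41029275 to 41059525 on the plus strand) encodes TdT. It had 444, 560 and 528 reads in WT and 285 and 253 reads in *Tet2/3* DKO libraries. This amounts to 17.2, 23.6 and 19.2 CPM in WT, a mean of 20.003 ± 3.28 (SD, n = 3), and to 13.6 and 14.2 CPM in *Tet2/3* DKO cells, a mean of 13.9 ± 0.402 (SD, n = 2). Both *Tet2/3* DKO libraries lay below the lowest WT library, and they were close to each other. Its log2 fold change was -0.53 (SE 0.18, adjusted p = 0.106), which puts the *Tet2/3* DKO level at 69.4% of WT with a 95% interval of 52.8% to 91.4%. It was -0.62 without WT replicate 1 and -0.50 without *Tet2/3* DKO replicate 1, and ran from -0.62 to -0.40 with any 1 library left out. *Dntt* shared no exon base and no stretch of 50 bases with another annotated gene.

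The work of TdT can be read from the receptor junctions themselves, which were deposited for the same libraries as clonotypes of the α (TRA) and β (TRB) chains. The most read in-frame clonotype of each library and chain is printed to show what such a junction looks like, from the conserved cysteine codon of the V segment to the codon that closes the third complementarity-determining region (CDR3) in the J segment. For TRB it was taken among clonotypes with an assigned D segment, and for TRA among those without. Capitals mark untemplated nucleotides, those that the deposited alignment assigns to neither a V, D or J segment nor a palindromic end.
TRA, WT replicate 1, TRAV14-2 and TRAJ13: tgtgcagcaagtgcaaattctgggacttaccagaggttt
TRA, *Tet2/3* DKO replicate 1, TRAV16D-DV11 and TRAJ2: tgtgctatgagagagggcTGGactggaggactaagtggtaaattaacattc
TRA, *Tet2/3* DKO replicate 2, TRAV21/DV12 and TRAJ50: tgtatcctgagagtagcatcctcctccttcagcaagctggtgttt
TRB, WT replicate 1, TRBV3, TRBD1 and TRBJ2-7: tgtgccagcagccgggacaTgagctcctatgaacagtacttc
TRB, WT replicate 2, TRBV31, TRBD2 and TRBJ2-1: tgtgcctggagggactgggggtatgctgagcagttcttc
TRB, WT replicate 3, TRBV2, TRBD2 and TRBJ2-1: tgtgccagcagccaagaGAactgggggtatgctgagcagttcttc
TRB, *Tet2/3* DKO replicate 1, TRBV13-2, TRBD1 and TRBJ2-1: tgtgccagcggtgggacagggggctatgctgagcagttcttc
TRB, *Tet2/3* DKO replicate 2, TRBV3, TRBD2 and TRBJ2-5: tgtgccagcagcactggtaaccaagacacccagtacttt

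The TRA junction sequence of WT replicate 1 was also that of the most read in-frame TRA clonotype of WT replicates 2 and 3, each time with 0 untemplated nucleotides, with the V segment assigned there to TRAV14N-2. It had 15, 16 and 32 reads in WT and 21 and 8 reads in *Tet2/3* DKO libraries, and so was found in all 5 mice. The leading TRA clonotypes of the *Tet2/3* DKO libraries, with 241 and 246 reads, differed from each other and carried 3 and 0 untemplated nucleotides. Their leading TRB clonotypes among those with an assigned D segment had 632 and 971 reads and carried 0. Those of the WT libraries had 9, 7 and 6 reads and carried 1, 0 and 2. Since such leading clonotypes take many reads, each clonotype was counted once in the means that follow.

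TRA junctions held slightly fewer untemplated nucleotides in *Tet2/3* DKO cells. The mean per clonotype was 2.34, 2.41 and 2.38 in WT, against 2.28 and 2.22 in *Tet2/3* DKO libraries, over 4066 to 7877 clonotypes per library, with a standard error over clonotypes of 0.0236 to 0.0315. Both *Tet2/3* DKO libraries lay below every WT library. The group means were 2.37 ± 0.0342 (SD, n = 3) and 2.25 ± 0.0410 (SD, n = 2), a difference of -0.121. The two-sided exact permutation test over libraries gave p = 0.1, which is the smallest that 3 against 2 libraries allow, and 0.167 after Benjamini-Hochberg adjustment over the 5 junction measures. The difference was -0.139 without WT replicate 1 and -0.150 without *Tet2/3* DKO replicate 1. It was smaller in size without WT replicate 2, and without *Tet2/3* DKO replicate 2, which leaves 2.28 against the WT mean of 2.37. The share of TRA clonotypes with 0 untemplated nucleotides, a measure added after the data had been seen, was 22.1%, 20.9% and 22.0% in WT, against 22.4% and 23.8% in *Tet2/3* DKO libraries (exact permutation p = 0.1). The Wilson 95% intervals of the 5 shares ranged from 19.96% at the lowest bound to 25.1% at the highest, and that of *Tet2/3* DKO replicate 1 overlapped those of all WT libraries.

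The total CDR3 length of TRA clonotypes was 40.7 nucleotides in all WT libraries, against 40.6 and 40.7 in *Tet2/3* DKO libraries, so the genotypes overlapped (difference -0.0538, exact permutation p = 0.5). TRB junctions, which are made at the earlier double-negative stage, had CDR3 lengths of 41.3, 41.1 and 41.2 nucleotides in WT, against 41.1 and 41.0 in *Tet2/3* DKO libraries, a difference of -0.135 (exact permutation p = 0.1). The *Tet2/3* DKO libraries were again the lower ones, and the difference was -0.0814 without *Tet2/3* DKO replicate 2. Untemplated nucleotides on both sides of the D segment, another measure added later, came to 2.67, 2.60 and 2.64 in WT and 2.61 and 2.48 in *Tet2/3* DKO TRB clonotypes (exact permutation p = 0.2), and the genotypes overlapped. This measure covers only clonotypes with an assigned D segment, 71.0% to 72.4% of the TRB clonotypes of each library. None of the 5 measures could pass 0.05 in this design.

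**Figure D3:**
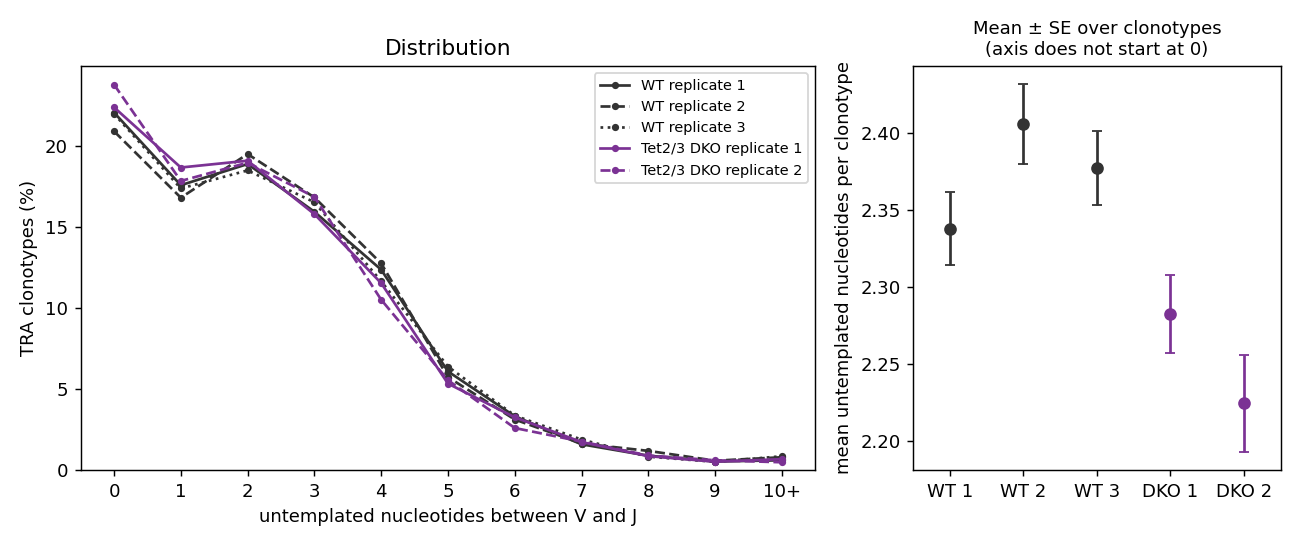
Left, share of TRA clonotypes (%, each counted once) by number of untemplated nucleotides between V and J, 1 line per library, WT in black and *Tet2/3* DKO in purple. Right, the mean number per clonotype with its standard error over clonotypes, on an axis that does not start at 0, where the *Tet2/3* DKO means of 2.28 and 2.22 lie below the WT means of 2.34 to 2.41.

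The joining of the cut ends depends on proteins that all cells use for repair, and their RNA was found in every library. Of 17 genes of end joining and break signalling, all 17 were tested and 0 passed the threshold by edgeR, with 4 at an unadjusted p under 0.05 and 1 past the threshold by DESeq2. Over all tested genes these shares were 3.92%, 23.0% and 6.91%. The median log2 fold change of the 17 genes was -0.0050. *Hmgb1* and *Hmgb2*, DNA-bending proteins that assist RAG at its target sites, had log2 fold changes of -0.02 and -0.04. *Xrcc6*, which encodes the Ku70 subunit that binds broken ends, had 142, 145 and 135 CPM in WT, against 154 and 158 in *Tet2/3* DKO libraries (log2 fold change 0.15, adjusted p = 0.339), and *H2afx*, the histone marked at breaks, had a log2 fold change of -0.32 (adjusted p = 0.0779). *Dclre1c* and *Lig4* are named because they had the highest and the lowest log2 fold change of the list, a choice made after their values were seen. *Dclre1c* encodes Artemis, which opens the hairpin ends left by RAG, and had 20.04, 18.1 and 16.4 CPM in WT, against 28.4 and 29.3 in *Tet2/3* DKO libraries (log2 fold change 0.67, SE 0.14, adjusted p = 0.0155). It was the gene that passed by DESeq2, and by edgeR it passed without *Tet2/3* DKO replicate 1 (adjusted p = 0.00663). *Lig4*, the ligase that seals the joint, had 5.18, 4.76 and 4.85 CPM in WT, against 2.05 and 3.64 in *Tet2/3* DKO libraries (log2 fold change -0.82, SE 0.29, adjusted p = 0.128). It had -0.44 without *Tet2/3* DKO replicate 1 and -1.28 without replicate 2.

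Among 11 transcription factors known to act on the *Rag* genes, 1 rose and 2 fell, where 2.42% of all tested genes rose and 1.50% fell, and the median log2 fold change was -0.28. By DESeq2 4 of the 11 passed, beside 6.91% of the genes it tested. *Gfi1*, a repressor, had 11.7, 11.5 and 9.69 CPM in WT, against 26.4 and 25.4 in *Tet2/3* DKO libraries and rose by a log2 fold change of 1.24 (SE 0.15, adjusted p = 0.00114). The high-mobility-group factors *Lef1* (-0.60, adjusted p = 0.00611) and *Tcf7* (-0.56, adjusted p = 0.00741), which act downstream of Wnt signals and in early T cell commitment, fell. These 3 calls were lost when any WT library was left out, with adjusted p from 0.0116 to 0.0142 for *Gfi1*, from 0.0373 to 0.0404 for *Lef1* and from 0.0229 to 0.0478 for *Tcf7*. *Satb1*, the chromatin organizer that binds the *Rag* locus, had 22327 and 14742 reads in *Tet2/3* DKO and 33790 to 37901 in WT libraries (log2 fold change -0.54, adjusted p = 0.0164), and passed without *Tet2/3* DKO replicate 1 (-0.74, adjusted p = 3.76e-05). The log2 fold change was -0.26 for *Ets1*, -0.41 for *Foxo1* and -0.06 for *Ikzf1*, and none of the 3 passed. *Foxo1* had -0.91 without *Tet2/3* DKO replicate 1, which passed (adjusted p = 0.000116), and -0.05 without replicate 2, which did not. With *Rag1* and *Rag2* at the limit of detection in both genotypes, their levels could not be set against those of these factors.

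*Arpp21* (ENSMUSG00000032503, chromosome 9 from 112065091 to 112235938 on the minus strand), an RNA-binding phosphoprotein gene that is high in DP thymocytes and low after selection, had few reads. It had 44, 21 and 53 reads in WT, against 12 and 11 in *Tet2/3* DKO libraries, or 1.70, 0.885 and 1.93 CPM against 0.572 and 0.615 CPM. Both *Tet2/3* DKO libraries were below every WT library, and WT replicate 2 stood nearest to them. Its log2 fold change was -1.36 (SE 0.51, 95% interval -2.52 to -0.20, adjusted p = 0.149), with -1.27 without WT replicate 1 and -1.31 without *Tet2/3* DKO replicate 1. It was -0.64 and -2.08 when only the reads of 1 strand or of the other were counted, with 62 and 86 reads in all, against 141 without regard to strand. The antisense gene *2900079G21Rik* covers 3.33% of its exon bases, and reads on exons of both genes are left out of the count without strand.

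*Cd24a* (ENSMUSG00000047139, chromosome 10 from 43578284 to 43584265 on the plus strand) encodes the surface protein CD24, or heat stable antigen, which falls as SP cells mature and by which cells were depleted before the sort. It had 260, 232 and 511 reads in WT, against 143 and 117 in *Tet2/3* DKO libraries, or 10.1, 9.78 and 18.6 CPM against 6.82 and 6.55 CPM. WT replicate 3 stood above the other 4 libraries, and both *Tet2/3* DKO libraries were below every WT library. The log2 fold change was -0.95 (SE 0.32, 95% interval -1.68 to -0.22, adjusted p = 0.113 by edgeR and 0.0346 by DESeq2). Leaving out WT replicate 3 gave -0.57, leaving out WT replicate 1 gave -1.10, and it was -0.98 without *Tet2/3* DKO replicate 1. How far the depletion of CD24-high cells set these levels was not tested.

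*Cd1d1* (ENSMUSG00000028076, chromosome 3 from 86995834 to 86999441 on the minus strand) encodes CD1d, the lipid-presenting molecule by which DP thymocytes select invariant NKT cells. It had 3912, 3189 and 4414 reads in WT, against 2976 and 1810 in *Tet2/3* DKO libraries, or 151, 134 and 161 CPM against 142 and 101 CPM. *Tet2/3* DKO replicate 1 lay among the WT libraries and replicate 2 below all of them. Its log2 fold change was -0.29 (SE 0.14, 95% interval -0.62 to 0.04, adjusted p = 0.273). Without *Tet2/3* DKO replicate 1 it was -0.56 with adjusted p = 0.00556, past the threshold, where the lone *Tet2/3* DKO library is taken to vary like the WT libraries. Without *Tet2/3* DKO replicate 2 it was -0.08, and without WT replicate 1 -0.28, and neither passed.

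*Cd1d2* (ENSMUSG00000041750, chromosome 3 from 86986551 to 86989780 on the plus strand), the neighbouring copy of *Cd1d1* that the annotation lists as a polymorphic pseudogene, was higher in *Tet2/3* DKO cells. It had 103, 77 and 130 reads in WT, against 271 and 209 in *Tet2/3* DKO libraries, or 3.98, 3.24 and 4.74 CPM against 12.9 and 11.7 CPM. Both *Tet2/3* DKO libraries were above every WT library, and the gene rose by a log2 fold change of 1.62 (SE 0.21, adjusted p = 0.00189), to 307% of the WT level. For each 100 reads on *Cd1d1* there were 2.63, 2.41 and 2.95 on *Cd1d2* in WT, against 9.11 and 11.5 in *Tet2/3* DKO libraries. The value lay between 1.49 and 1.76 with any 1 library left out, and the call was lost without WT replicate 1, 2 or 3, with adjusted p from 0.0129 to 0.0204. The copies share 489 stretches of 50 bases, 31.0% of those in *Cd1d2* and 19.1% of those in *Cd1d1*, and since reads that map to several places were left out of the counts, both counts are uncertain.

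A list of 5 genes held *Cd1d2* beside 4 genes known to serve lipid presentation by CD1d. *Cd1d2* passed the threshold and those 4 did not. *Ctss*, which encodes the protease cathepsin S, had a log2 fold change of -0.24 (adjusted p = 0.305), from -0.49 to -0.05 with 1 library left out and with 1 of 16 alternatives past the threshold (adjusted p = 0.00466). *B2m*, the light chain that CD1d shares with MHC class I, had a log2 fold change of 0.32 (SE 0.09, adjusted p = 0.0699, and 0.00536 without *Tet2/3* DKO replicate 2), with both *Tet2/3* DKO libraries above every WT library.

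*Bcl11b* (ENSMUSG00000048251, chromosome 12 from 107910403 to 108003602 on the minus strand) encodes the zinc finger factor that commits cells to the T lineage and stays on in SP cells. It had 4072, 4876 and 4188 reads in WT, against 3856 and 2685 in *Tet2/3* DKO libraries, or 158, 205 and 153 CPM against 184 and 150 CPM. The genotypes overlapped. The log2 fold change was -0.04 (SE 0.14, 95% interval -0.37 to 0.29, adjusted p = 0.915), which covers levels from 77.6% to 122% of WT. It was -0.10 without WT replicate 1 and -0.20 without *Tet2/3* DKO replicate 1, and it turned to 0.11 without WT replicate 2 and to 0.08 without *Tet2/3* DKO replicate 2.

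Per kb of exon the order of the levels was the same in both genotypes. *Cd1d1* led with 57.9 ± 5.22 CPM per kb in WT (SD, n = 3) and 47.3 ± 11.2 in *Tet2/3* DKO cells (SD, n = 2), followed by *Bcl11b* with 21.2 ± 3.60 and 20.6 ± 2.93. *Dntt* came next with 8.73 ± 1.43 and 6.05 ± 0.175, then *Cd24a* with 4.97 ± 1.95 and 2.59 ± 0.0744. *Arpp21* had 0.0864 ± 0.0316 and 0.0341 ± 0.00176, and *Rag2* and *Rag1* stood at the bottom. Neighbours in this order lay further apart than their SDs, except *Rag2* and *Rag1*, which did not differ at this depth. The WT levels per kb were ranked among all 21974 protein-coding genes counted, of which 31.0% had 0 reads in every library. The WT levels stood at percentile 94.9 for *Cd1d1*, 87.5 for *Bcl11b*, 79.0 for *Dntt*, 73.3 for *Cd24a* and 48.9 for *Arpp21*.

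The genes whose pattern over the 5 libraries was nearest to that of a member were taken by the root mean square difference of log2 CPM, each gene centred on its own mean. For *Dntt* they were *Usp12*, *Capn15* and *Twsg1*, with differences of 0.0354 to 0.0452, and for *Cd1d1* they were *Cep290*, *Rgcc* and *Cbr1*, with 0.0134 to 0.0385. For *Bcl11b* they were *Pom121*, *Ikzf1* and *Zfp692*, with 0.0207 to 0.0386. For *Cd24a* they were *Prr5l*, *Ube2e2* and *Gm3739*, with 0.119 to 0.164, and for *Arpp21*, the member with fewest reads among those tested, *Tmem53*, *Henmt1* and *Card9*, with 0.213 to 0.231. How near to a member a gene can come by chance over 5 libraries was not tested, and the nearness is a description only.

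Other genes of the DP stage did not move as a block. Of 12, 10 were tested, 0 rose and 1 fell, where 2.42% of all tested genes rose and 1.50% fell, and the median log2 fold change was 0.0016. The gene that fell was *Cd8b1*, the β chain of the CD8 co-receptor, with 66.9, 65.9 and 71.7 CPM in WT, against 28.6 and 27.1 in *Tet2/3* DKO libraries (log2 fold change -1.29, SE 0.11, adjusted p = 0.000168), while *Cd8a*, its partner chain, had 2.71, 2.91 and 5.39 CPM in WT, against 5.77 and 8.67 in *Tet2/3* DKO libraries (log2 fold change 0.94, adjusted p = 0.128). The sort had removed cells with CD8 on the surface. *Ptcra*, the pre-T cell receptor chain that defines cells before α chain assembly, had 3, 0 and 0 reads in WT, against 2 and 0 in *Tet2/3* DKO libraries, and *Cplx1* had 0 in all. *Arl5c* and *Bcl2l1*, the latter a survival gene of DP cells, had log2 fold changes of 0.14 and -0.08. Of 8 genes of the double-negative stage, 3 were tested and 0 passed by edgeR, with 2 at an unadjusted p under 0.05 and 1, *Dtx1*, past the threshold by DESeq2. Over all tested genes the shares by these last 2 criteria were 23.0% and 6.91%. *Kit*, the stem cell factor receptor, had 33, 34 and 39 reads in WT, against 7 and 10 in *Tet2/3* DKO libraries (log2 fold change -1.64, SE 0.46, adjusted p = 0.0607). *Il2ra* had 34.2, 33.7 and 37.4 CPM in WT, against 11.4 and 38.3 in *Tet2/3* DKO libraries, so the genotypes overlapped. Its log2 fold change was -0.52 (SE 0.36, adjusted p = 0.455), and from -1.63 to 0.12 with 1 library left out.

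Genes by which young and older SP cells are told apart split in both lists. By edgeR 2.42% of all tested genes rose and 1.50% fell. Of 12 genes of recently selected, immature SP cells, 1 rose and 1 fell by edgeR, 3 passed by DESeq2 and 9 had an unadjusted p under 0.05, where 6.91% and 23.0% of all genes did so by these last criteria. Their median log2 fold change was 0.28. The chemokine receptor gene *Ccr4* rose by 1.33 (SE 0.20, adjusted p = 0.00345), a call lost without any WT library (adjusted p from 0.0213 to 0.0333), and *Cd5*, a damper of receptor signals, fell by 1.28 on the log2 scale (SE 0.10, adjusted p = 8.57e-05). *Cd69*, an activation marker that holds young cells in the thymus, had 232, 229 and 239 CPM in WT, against 724 and 348 in *Tet2/3* DKO libraries (log2 fold change 1.20, adjusted p = 0.0131). It passed with either *Tet2/3* DKO library left out, at 0.57 without replicate 1 and 1.62 without replicate 2. The log2 fold change was 0.13 for *Itm2a*, 0.28 for *Tox* and -0.59 for *Nr4a1*, and none of the 3 passed. *Nr4a1* had -0.90 without *Tet2/3* DKO replicate 1, which passed (adjusted p = 9.08e-05), and -0.35 without replicate 2. Of 12 genes of mature SP cells, 1 rose and 1 fell, with a median of 0.04, while 7 passed by DESeq2 and 8 had an unadjusted p under 0.05, beside 6.91% and 23.0% of all genes that these tools tested. The class I gene *H2-Q7* rose by 1.32 (SE 0.11, adjusted p = 0.000142), and *S1pr1*, the receptor by which mature cells leave the thymus, fell by 0.64 on the log2 scale (SE 0.10, adjusted p = 0.00394, and 0.0118 to 0.0336 with 1 WT library left out). *Cd52*, *Gimap6*, *Gimap4* and *Slfn2* had log2 fold changes of -0.43, 0.27, 0.14 and 0.18, and none passed, but *Cd52* did without *Tet2/3* DKO replicate 1 (-0.53, adjusted p = 0.0016). *Klf2* and *Itgb7*, named after their values were seen, lay just short of the threshold at -0.64 (adjusted p = 0.0127) and -0.54 (adjusted p = 0.0121), and their calls changed in 8 and 9 of 16 alternatives.

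**Figure D4:**
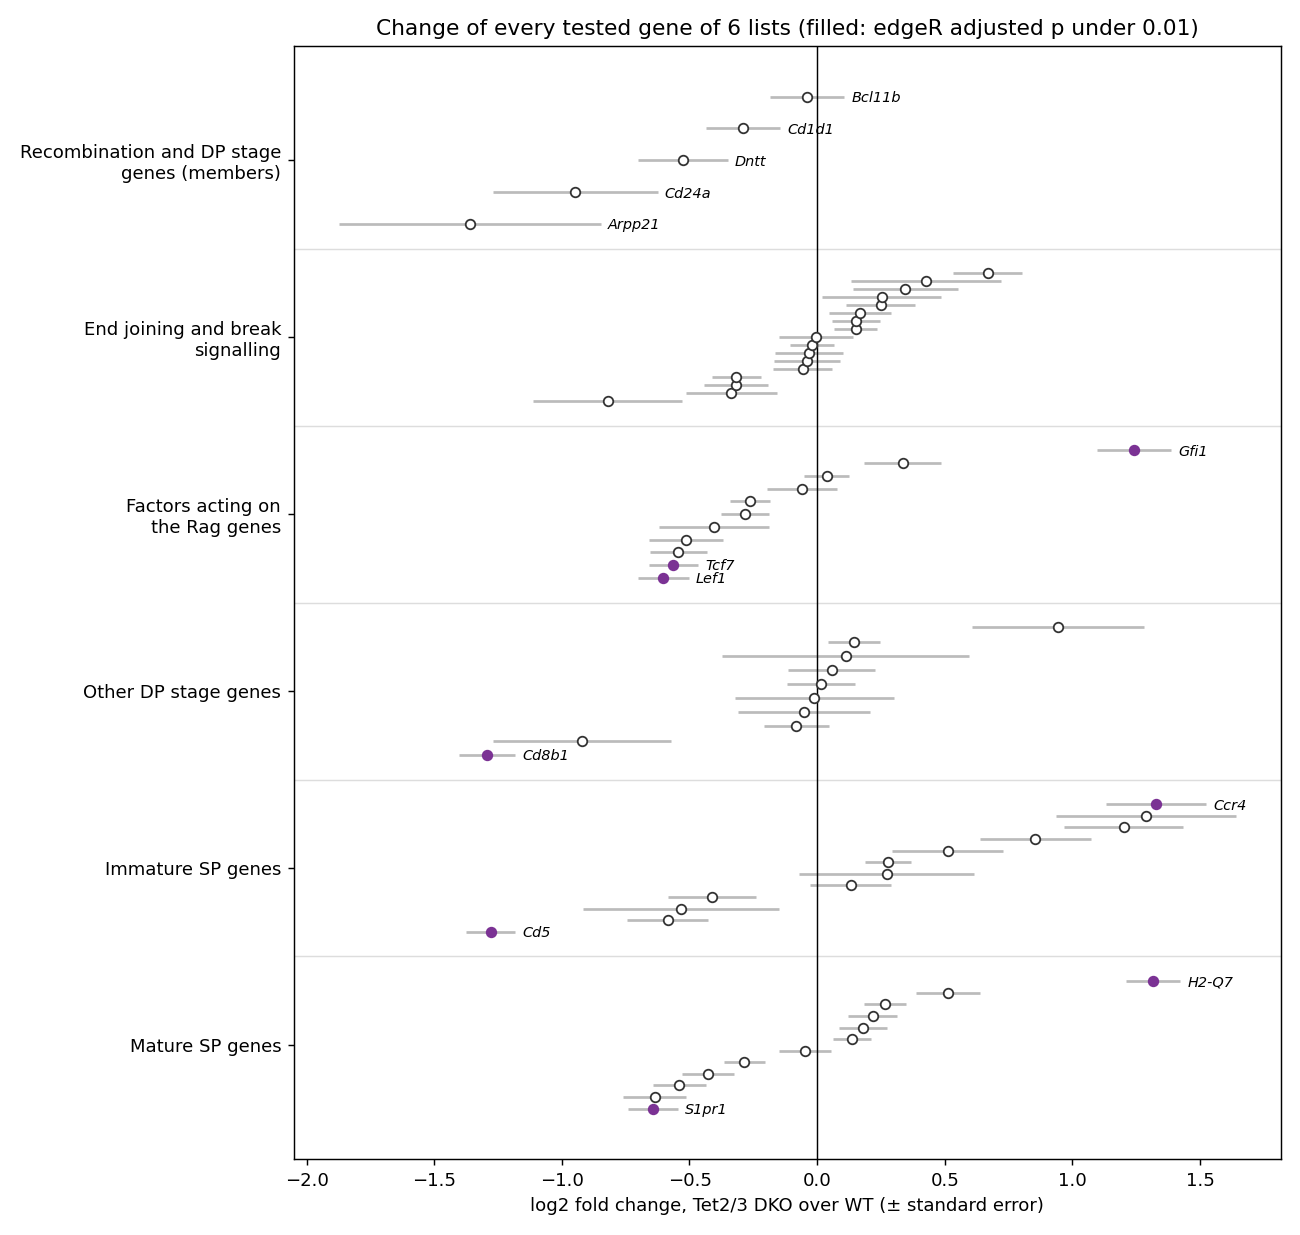
Log2 fold change of *Tet2/3* DKO over WT (horizontal axis, bars are ± standard error) for every tested gene of 6 lists, filled where edgeR's adjusted p was under 0.01. The 5 tested members lie from -1.36 to -0.04 with none filled, and the filled genes of the other lists lie on both sides of 0.

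Markers of other cell types that a sort can carry along were followed in 4 lists, and edgeR put 0 of their tested genes past the threshold. Over all tested genes 3.92% passed by edgeR and 6.91% by DESeq2, and 23.0% had an unadjusted p under 0.05. In *Tet2/3* DKO replicate 2, *Lyz2* had 42.5 CPM, *Epcam* 33.8 and *H2-Ab1* 26.5, above the 14.2 of *Dntt*, and the other markers lay below it. Of 6 myeloid and dendritic cell markers, 4 were tested, all with a positive log2 fold change (median 1.71). With 1 library left out the log2 fold change ran from -0.51 to 1.91 for *H2-Aa* and from 0.19 to 2.41 for *H2-Ab1*. It ran from 1.04 to 2.25 for *Lyz2* and from 2.23 to 3.78 for *Csf1r*. The summed level of the 6 markers was 12.4 to 21.6 CPM in WT libraries, 27.9 in *Tet2/3* DKO replicate 1 and 83.6 in replicate 2. None passed by edgeR or DESeq2 with all libraries, with 3 at an unadjusted p under 0.05, and *Siglech* was at 0 in all WT libraries. The call of *Lyz2* changed in 4 of 16 alternatives, and those of *Csf1r*, *H2-Aa* and *H2-Ab1* in fewer. Of 6 thymic epithelial markers, 4 were tested and none passed by edgeR, with 4 at an unadjusted p under 0.05 and 1, *Prss16*, past the threshold by DESeq2. Their summed level was 18.8 to 21.2 CPM in WT libraries, 13.4 in *Tet2/3* DKO replicate 1 and 37.1 in replicate 2. Of the last sum 33.8 CPM was *Epcam*, an adhesion gene of epithelia (log2 fold change 1.16, adjusted p = 0.116, and 0.08 without that library), whereas the other 3 tested markers had negative values. The thymoproteasome gene *Psmb11* had 39, 22 and 18 reads in WT, against 1 and 0 in *Tet2/3* DKO libraries, and *Prss16* had 10.1, 7.88 and 6.34 CPM against 2.77 and 3.08 CPM (log2 fold change -1.47, adjusted p = 0.0148). Of 8 B cell markers, 3 were tested and none passed by either tool, with 1 at an unadjusted p under 0.05, and their summed level was 6.34 to 7.83 CPM in WT and 9.92 to 10.3 in *Tet2/3* DKO libraries, with *Igll1* at 0 in all. Of 6 erythroid markers none had enough reads to be tested, and their summed level was 0.0729 to 0.336 CPM over all libraries. The part of these cell types in the levels of *Dntt*, *Arpp21* and *Cd24a* was not tested.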

How the data were processed

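RNA of sorted CD4 SP cells from 3 WT and 2 *Tet2/3* DKO mice was measured in 1 library each. The authors trimmed reads with fastp 0.21.0, aligned them with STAR 2.7.5a to mm10 (GRCm38) and deposited unnormalized gene counts without regard to strand and for each strand. The unstranded count was used here. The authors also deposited TRA and TRB clonotypes with a count of reads, the ends of the aligned segments and the fraction of the chain's reads, a fraction not used beyond a check. The clonotype tool is not given in the sources used here, and the alignment fields were read in the layout MiXCR writes. Symbols, exons and mm10 coordinates came from GENCODE M21, which holds 55227 of the 55487 gene identifiers.

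Counts were tested with edgeR 4.0.16 in R 4.3.3 (quasi-likelihood test, TMM scaling, filterByExpr, Benjamini-Hochberg over 13525 genes, adjusted p threshold 0.01). Replicates are different mice, and p-values measure the spread between these libraries. Junction means were compared by exact permutation tests over libraries (scipy 1.17.1). Counts of untemplated nucleotides left out 20 to 39 TRA clonotypes per library that had an assigned D segment, and all TRB clonotypes without one. Intervals of log2 fold changes come from the edgeR fit and take in the spread between libraries. Wilson intervals and floors cover counting error only, and reads carry no molecular identifiers. Alternatives were DESeq2 1.42.0, other scalings, filters, moderation, strands, the replicate block and leaving out each library. The scripts were tested on simulated data.

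The members and lists were chosen with earlier results of these data known. Named genes are the members, in each list those past the threshold and up to 4 others of highest level, neighbours of the *Rag* pair, *Cd1d2*, and the 3 nearest patterns per member (mean log2 CPM of at least 1, prior count 2). Markers of other cell types and *Cd8a*, *Ptcra*, *Cplx1*, *Ccr9*, *Klf2*, *Itgb7*, *Ctss*, *Dtx1*, *Dclre1c* and *Lig4* were named beyond that rule. The fold changes and p-values of the study itself were not used.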

Additional observations from a re-analysis of the deposited data

How the results depend on the processing

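Genes past the threshold numbered 530, against 1027 by DESeq2 and 1173 at an adjusted p of 0.05, and between 110 and 1311 with 1 library left out (110 to 152 without a WT library, 1311 and 1148 without *Tet2/3* DKO replicate 1 or 2, when the lone library is assumed to vary like WT). Members past it numbered 0 under every alternative but 1, with 0 to 1 on leaving out a library, the 1 being *Cd1d1* without *Tet2/3* DKO replicate 1. Replicate numbers are shared between genotypes but name different mice, and same-numbered libraries did not deviate together (correlations 0.0151 and 0.00446 for numbers 1 and 2). With the replicate block 358 genes passed, *Gfi1*, *Lef1* and *Tcf7* were lost (adjusted p 0.0106, 0.0106 and 0.0187), *Ccr9* was gained (0.00898), and the block gave *Hmgb1* a log2 fold change of 0.0097. On 1 strand alone *Bcl2l1* had 0.068 and *Traf6* -0.0095. Leaving out 1 library turned *Bcl11b* (-0.20 to 0.11), *Hmgb1* (-0.098 to 0.039), *Hmgb2* (-0.32 to 0.18), *Ikzf1* (-0.22 to 0.071), *Bcl2l1* (-0.28 to 0.082), *Traf6* (-0.17 to 0.21), *Il2ra* (-1.63 to 0.12) and *H2-Aa* (-0.51 to 1.91). It also moved, by over 1.5 times and without a call, *Itm2a* (0.0057 to 0.32), *Arl5c* (0.067 to 0.21), *Slfn2* (0.11 to 0.22), *Cd8a* (0.62 to 1.35), *Ccr9* (0.33 to 0.81) and *B230118H07Rik* (-0.88 to -0.35). The TRA CDR3 length difference was 0.336 when clonotypes were weighted by reads, and -0.123 to 0.0154 with 1 library left out. The causes were not tested. Over 45 genes, 650 of 719 gene values under an alternative kept direction and side of the threshold. *Rag1* and *Rag2* had too few reads for a test, and *Arpp21* had 141 reads in all.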
